A study of Mus musculus with 14 samples.

Results

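The 9 genes described here encode components that start the classical and the lectin pathway of complement, together with the inhibitor that both pathways share. They are *C1qa*, *C1qb*, *C1qc*, *C1ra*, *C2*, *C4b*, *Masp1*, *Masp2*, and *Serping1*. Each was taken by its symbol from the kidney RNA-seq table of every mouse, and all 9 of 9 were found among the 21878 genes measured. All 9 were also among the 14912 genes tested, which are those that reached 0.1 FPKM in 3 or more mice. Each mouse was a male C57BL/6J mouse and gave 1 kidney library. The 4 WT diabetic and the 4 *Cfb*-/- diabetic mice had received a high-fat diet (HFD) with 60% of calories from fat for 4 weeks and then streptozotocin (STZ), a toxin of insulin-producing cells, at 60 mg/kg on 5 days. The 3 WT control and the 3 *Cfb*-/- control mice had received chow with 10% of calories from fat and citrate buffer. In the *Cfb*-/- mice the gene of complement factor B, an enzyme of the alternative pathway, was deleted in the whole animal. The labels give all mice a time of 34 weeks without its starting point. They also give the control mice the treatment text of the diabetic mice and the deletion as a knockdown, so the groups follow the sample names.

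In the classical pathway, C1q binds antibody complexes, dying cells, or pentraxins and switches on its partner proteases C1r and C1s. In the lectin pathway, mannose-binding lectins, ficolins, and collectins bind sugars and switch on the proteases of the MASP family. Both routes then cleave C4 and C2, whose fragments join into an enzyme that cleaves C3. C1 inhibitor, the product of *Serping1*, blocks C1r, C1s, and the MASP proteases. C1q is made mainly by macrophages and dendritic cells, whereas the liver makes most of the other components found in plasma, and kidney cells also transcribe several of them.

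Values are FPKM, fragments scaled to transcript length and library size, so that levels can be set side by side between genes. Summed over all genes they came to 330246 to 488196 per mouse, and relative depth, read from the steps between low values, was 0.839 to 1 of that of the deepest library. Within groups, log2 values of all tested genes correlated at 0.981 to 0.990 between mice, and 0 pairs of mice were identical. *Cfb* itself was at 2.05 to 2.22 FPKM in *Cfb*-/- control mice and at 62.2 to 131 FPKM in WT control mice. With diabetes it ranged from 1.13 to 1.43 FPKM after deletion and from 56.7 to 81.9 FPKM in WT mice. The proximal tubule transcript *Kap*, a defining transcript of male mouse kidney, took 10.2% to 13.9% of all FPKM in control mice and 1.98% to 4.60% in diabetic mice. A gene whose RNA stays level can therefore rise in FPKM in diabetes, and the median log2 difference of all tested genes was 0.29 in WT mice and 0.22 in *Cfb*-/- mice. Urothelium markers stood apart in 5 mice, with a summed level of 18.0 to 51.1 FPKM in the second, the third, and the fourth WT diabetic mouse, 10.0 FPKM and 10.3 FPKM in the first and the third *Cfb*-/- control mouse, and 0.279 to 3.58 FPKM in all others. Whether a difference reflects more cells of a type or more RNA per cell cannot be told apart in whole kidney.

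The first question was whether diabetes changes these transcripts in mice with and without factor B. In WT mice 7 of the 9 genes were higher in diabetes, 1 was lower, and 1 did not pass the test in limma, with p adjusted by Benjamini and Hochberg over all tested genes and a threshold of 0.05. Over all tested genes, 36.2% were higher and 9.97% lower by the same rule. Of the same genes 8 of 9 were higher and 0 lower in *Cfb*-/- mice, beside 27.4% higher and 6.4% lower over all tested genes. The median log2 difference of the 9 genes was 1.70 in WT mice and 2.19 in *Cfb*-/- mice. In WT mice 7 of the genes had every diabetic mouse above every control mouse, which held for 35.5% of all tested genes, and in *Cfb*-/- mice 8 did, beside 33.6%. The exact two-sided permutation test used here doubles the smaller tail, so with 4 mice against 3 it cannot give a p under 0.0571. Calls here thus rest on limma. After median-ratio scaling the genes higher in diabetes were 3391 of 6738 called in WT mice, in place of 5392 of 6879, and 2761 of 4862 in *Cfb*-/- mice, in place of 4083 of 5038. After quantile normalization they were 2366 of 5358 and 2146 of 4374. The rises of *C1qa*, *C1qb*, *C1qc*, *C1ra*, *C4b*, *Masp1*, and *Serping1* kept their direction and their call in both genotypes under these scalings and under each other alternative tried.

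**Figure D1:**
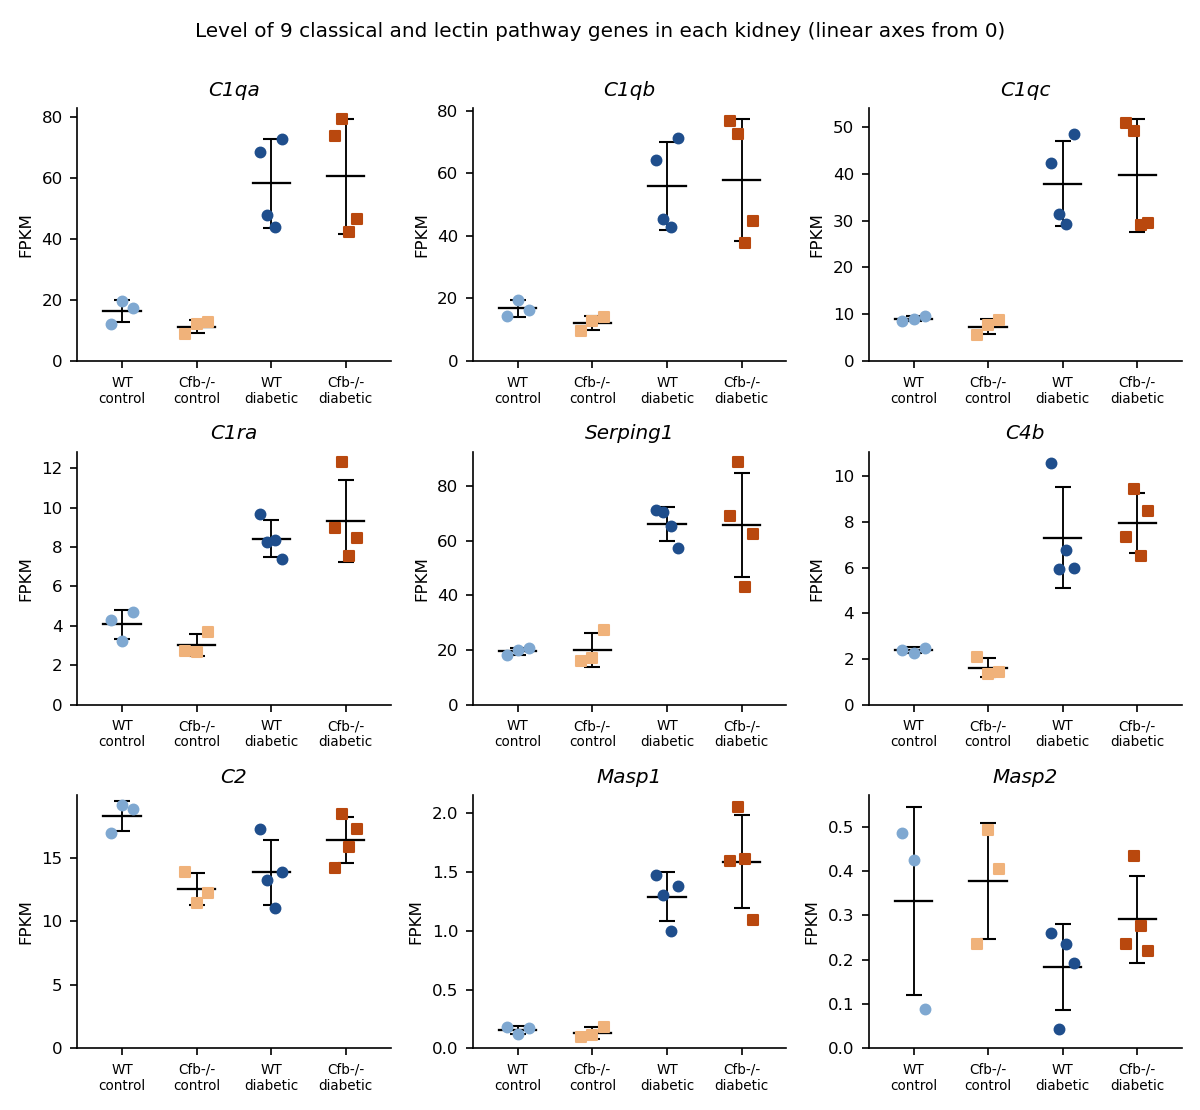
FPKM of the 9 genes in each kidney, on linear axes that start at 0, with circles for WT mice and squares for Cfb-/- mice. Horizontal lines are group means and bars the SD (n = 3 control mice and n = 4 diabetic mice per genotype). In 7 panels all diabetic mice lie above all control mice, while the groups of C2 and Masp2 lie close together.

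C1q is built from the products of *C1qa*, *C1qb*, and *C1qc*, which lie next to each other on the minus strand at chr4:136895916-136898844, chr4:136880126-136886200, and chr4:136889801-136892936 (GRCm38.p6), within 18719 bases. The 250 bases before the RefSeq start of *C1qb* and *C1qc* are shown because these neighbouring genes rose together. Both are given 5′ to 3′ on the minus strand, with capitals for the letters GAGGAA or their reverse complement, the core bound by the myeloid factor PU.1.
C1qb: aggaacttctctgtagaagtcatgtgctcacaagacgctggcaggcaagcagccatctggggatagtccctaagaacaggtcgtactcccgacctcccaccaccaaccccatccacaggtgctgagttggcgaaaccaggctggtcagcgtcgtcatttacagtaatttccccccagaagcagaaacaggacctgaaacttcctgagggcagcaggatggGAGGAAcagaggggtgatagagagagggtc
C1qc: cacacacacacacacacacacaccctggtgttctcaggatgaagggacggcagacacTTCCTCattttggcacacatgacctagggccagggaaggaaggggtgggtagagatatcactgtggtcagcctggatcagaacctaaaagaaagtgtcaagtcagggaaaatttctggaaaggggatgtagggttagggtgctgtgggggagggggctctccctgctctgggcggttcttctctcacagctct
These sequences are RefSeq's, at chr4:136886201-136886450 and chr4:136892915-136893164. The start used for *C1qc* is that of its promoter entry. It lies inside the gene span given above, so the last bases of that sequence lie within the span. The letters begin 30 bases before the start of *C1qb* and lie 193 bases before that of *C1qc*, and either strand of 23.3% of 32851 RefSeq promoters of this length holds them. The letters of an interferon-gamma activation site (TTCNNNGAA) and of a TATA box (TATAAA) were searched too, and neither sequence holds them. Of the other members with a promoter entry, *C1ra* had no match and *Masp2* had 1 interferon-gamma activation site. Such a match is a description of the letters and no evidence of binding.

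*C1qa* encodes the A chain of C1q. It was at 12.3, 19.6, and 17.4 FPKM in the WT control mice and at 68.4, 47.8, 43.9, and 72.9 FPKM in the WT diabetic mice. The *Cfb*-/- mice had 8.92, 12.0, and 12.8 FPKM without diabetes and 73.9, 79.3, 42.2, and 46.7 FPKM with diabetes. In each genotype the lowest diabetic mouse was above the highest control mouse. *C1qa* was 3.52-fold higher in diabetic WT mice (95% interval 2.43 to 5.09, limma adjusted p = 8.29e-05) and 5.20-fold higher in diabetic *Cfb*-/- mice (3.59 to 7.54, limma adjusted p = 1.35e-05), on the log2(FPKM + 0.1) scale. The other chains behaved alike. *C1qb*, the B chain, rose from 14.5 to 19.6 FPKM in WT control mice to 42.8 to 71.2 FPKM in WT diabetic mice, and from 9.71 to 14.1 FPKM to 37.7 to 76.5 FPKM in *Cfb*-/- mice. *C1qc*, the C chain, rose from 8.59 to 9.57 FPKM to 29.4 to 48.5 FPKM in WT mice, and from 5.66 to 8.74 FPKM to 29.0 to 51.0 FPKM in *Cfb*-/- mice. For *C1qb* the log2 difference was 1.70 (SE 0.25) in WT mice and 2.19 (SE 0.25) in *Cfb*-/- mice. It was 2.02 (SE 0.23) and 2.39 (SE 0.23) for *C1qc*.

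Within a mouse the 3 chains kept close to a fixed ratio. *C1qb* was 0.894 to 1.18 times *C1qa* over the 14 mice, and *C1qc* was 0.463 to 0.700 times *C1qa*. Deviations from the group means correlated at 0.968 between *C1qa* and *C1qb* and at 0.923 between *C1qa* and *C1qc* over the 14 mice, as a description of values that share a library. In both diabetic groups the chains fell into a higher and a lower pair of mice. The first and the fourth WT diabetic mouse and the first and the second *Cfb*-/- diabetic mouse held 68.4 to 79.3 FPKM of *C1qa*, and the other 4 diabetic mice held 42.2 to 47.8 FPKM.

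Macrophage markers moved with the C1q genes. Of 15 such markers, 14 were higher in diabetes in WT mice and 13 in *Cfb*-/- mice by limma, with 0 lower in either, and none was at 0 in all mice. Their summed level was 71.2 to 87.7 FPKM in WT control mice and 56.4 to 95.0 FPKM in *Cfb*-/- control mice. It was 224 to 337 FPKM in WT diabetic and 206 to 351 FPKM in *Cfb*-/- diabetic mice. The most abundant were *Lyz2*, which encodes a lysozyme of myeloid cells, at a mean of 18.9 FPKM in WT control and 129 FPKM in WT diabetic mice, and *Tyrobp*, a signalling adaptor, at 15.5 FPKM and 37.5 FPKM. Divided by the summed markers, *C1qa* was 0.213 ± 0.0366 (SD, n = 3) in WT control, 0.211 ± 0.0233 (SD, n = 4) in WT diabetic, and 0.210 ± 0.0274 (SD, n = 4) in *Cfb*-/- diabetic mice. The ratio was 0.161 ± 0.0450 (SD, n = 3) in *Cfb*-/- control mice, where it ran from 0.135 to 0.213. Abundant markers weigh most in the sum, so this ratio depends on the markers chosen. In WT mice the log2 difference in diabetes was 2.76 for *Lyz2*, 0.87 for *Csf1r*, and 0.26 for *Mertk*, beside 1.81 for *C1qa*. Of these, *Mertk* did not pass the test. Fibroblast markers rose too, from 31.5 to 50.7 FPKM summed over 10 genes in control mice to 85.4 to 158 FPKM in diabetic mice. The part of either cell type in the rise of the C1q genes was not tested.

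**Figure D2:**
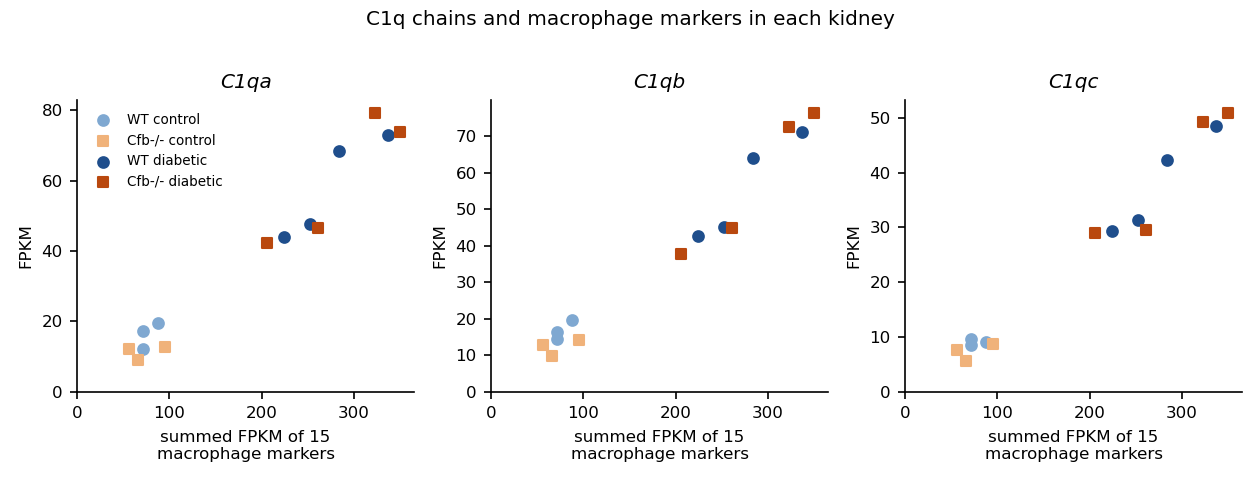
FPKM of C1qa, C1qb, and C1qc against the summed FPKM of 15 macrophage markers, with 1 point per kidney and linear axes from 0. Control mice lie at 56.4 to 95.0 FPKM of summed markers and diabetic mice at 206 to 351 FPKM, and the C1q level is higher in the second set in each panel.

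*C1ra* encodes C1r, the protease that C1q switches on, and lies at chr6:124512621-124523440 on the plus strand. It was at 4.28, 3.25, and 4.69 FPKM in WT control mice and reached 9.66, 8.27, 8.36, and 7.37 FPKM in WT diabetic mice. The *Cfb*-/- control mice had 2.75, 2.65, and 3.69 FPKM and the *Cfb*-/- diabetic mice 8.96, 12.3, 7.54, and 8.47 FPKM. Diabetic and control mice did not overlap in either genotype. The rise was 2.05-fold in WT mice (1.57 to 2.68, limma adjusted p = 4.29e-04) and 2.99-fold in *Cfb*-/- mice (2.29 to 3.90, limma adjusted p = 2.33e-05). Of the 125-base windows of the *C1ra* transcript, 30.6% also occur in *C1rb* or *Gm18840*, so part of its value depends on how reads were shared out. *C1rb* was low, with a group mean of at most 0.0658 FPKM. *C1s1*, which encodes the partner protease C1s, was higher by 1.30 (SE 0.19) on the log2 scale in WT mice and by 1.51 (SE 0.19) in *Cfb*-/- mice. Its level was 1.22 to 1.63 times that of *C1ra* in the 14 mice.

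*Serping1*, at chr2:84765360-84775444 on the minus strand, encodes C1 inhibitor. It was at 18.2, 19.9, and 20.7 FPKM in WT control mice and reached 71.2, 70.5, 65.4, and 57.4 FPKM in WT diabetic mice. Without factor B the values were 16.0, 17.0, and 27.3 FPKM in control mice and 69.0, 88.8, 42.9, and 62.4 FPKM in diabetic mice. All diabetic mice exceeded all control mice. The rise was 3.35-fold in WT mice (2.45 to 4.59, limma adjusted p = 3.34e-05) and 3.25-fold in *Cfb*-/- mice (2.37 to 4.45, limma adjusted p = 4.56e-05). The inhibitor was thus among the genes that rose, beside *C1ra* and *Masp1*, whose products it blocks. The ratio of *C1ra* to *Serping1* was 0.208 ± 0.0394 (SD, n = 3) in WT control and 0.127 ± 0.00758 (SD, n = 4) in WT diabetic mice, and it did not overlap between these groups, at 0.163 to 0.235 and 0.117 to 0.136. The ratio overlapped in *Cfb*-/- mice, at 0.135 to 0.172 without and 0.130 to 0.176 with diabetes.

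*C4b* encodes C4, the first protein that both pathways cleave, and lies at chr17:34728139-34743902 on the minus strand. It was at 2.41, 2.27, and 2.50 FPKM in WT control mice and reached 10.6, 5.93, 6.76, and 5.96 FPKM in WT diabetic mice. The *Cfb*-/- control mice had 2.10, 1.35, and 1.42 FPKM and the *Cfb*-/- diabetic mice 7.35, 9.46, 6.51, and 8.49 FPKM. The lowest diabetic mouse was well above the highest control mouse in each genotype. *C4b* rose 2.89-fold in WT mice (2.13 to 3.92, limma adjusted p = 7.08e-05) and 4.71-fold in *Cfb*-/- mice (3.47 to 6.39, limma adjusted p = 5.31e-06). Its paralog *C4a*, with which 11.5% of the windows of *C4b* are shared, was lower in diabetes. *C4a* fell by 0.92 (SE 0.28, limma adjusted p = 0.0165) on the log2 scale in WT mice and by 0.96 (SE 0.28, limma adjusted p = 0.0160) in *Cfb*-/- mice, at group means of 0.103 to 0.330 FPKM.

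*C2* encodes the protease that joins C4 in the enzyme that cleaves C3, and is the nearest relative of factor B. It lies at chr17:34862602-34882100, 87 bases from *Cfb* (chr17:34856374-34862514) on the same minus strand, and *C4b* lies 112471 bases beyond *Cfb*. *C2* was at 16.9, 19.1, and 18.8 FPKM in WT control mice and took values of 17.2, 13.2, 11.1, and 13.9 FPKM in WT diabetic mice. In *Cfb*-/- mice it was at 13.9, 11.5, and 12.3 FPKM without diabetes and at 14.2, 18.4, 15.9, and 17.2 FPKM with diabetes. In WT mice 3 of 4 diabetic mice were below all control mice, whereas in *Cfb*-/- mice all diabetic mice were above all control mice. *C2* in diabetes was thus 0.751-fold that of control mice in WT mice (0.613 to 0.920, limma adjusted p = 0.0240) and 1.31-fold in *Cfb*-/- mice (1.07 to 1.60, limma adjusted p = 0.0418).

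Neither call on *C2* was stable. The rise in *Cfb*-/- mice was lost after median-ratio scaling (log2 difference 0.14, limma adjusted p = 0.492) and quantile normalization (0.26, limma adjusted p = 0.189). It was also lost without a mean-variance trend (limma adjusted p = 0.0583) and without any 1 of 8 mice in turn (limma adjusted p 0.0508 to 0.15), namely the second, the third, or the fourth *Cfb*-/- diabetic, the second or the fourth WT diabetic, the second or the third *Cfb*-/- control, or the third WT control mouse. The fall in WT mice held under both scalings, at -0.69 and -0.49, and was lost in a fit of the WT mice alone (limma adjusted p = 0.0512). Leaving out the second or the third WT diabetic mouse, or the second or the third WT control mouse, lost it as well (limma adjusted p 0.0505 to 0.0809). In the order in which *C2* was given, the summed urothelium markers of the WT diabetic mice were 0.721, 36.9, 51.1, and 18.0 FPKM. The mouse with the lowest urothelium level was thus the one whose *C2* lay within the WT control range. In the *Cfb*-/- control mice, in the same order, the summed markers were 10.0, 0.636, and 10.3 FPKM. There the mouse with the lowest urothelium level had the lowest *C2*. Summed adipocyte markers, in the same order, were 64.1, 77.0, 108, and 87.6 FPKM in the WT diabetic mice, again lowest in the first. In the *Cfb*-/- control mice they were 70.2, 42.6, and 39.7 FPKM, where the lowest was not in the mouse with the lowest *C2*. The parts of urothelium and of adipocytes in the level of *C2* were not tested. With only the 9 mice under 5 FPKM of urothelium markers, an alternative chosen after these sums were seen, 1 WT diabetic mouse and 1 *Cfb*-/- control mouse remained and were assumed to vary like the others. The log2 difference of *C2* in WT mice was then -0.08 (limma adjusted p = 0.766) and that in *Cfb*-/- mice 0.51 (limma adjusted p = 0.0815). Of the windows of the *C2* transcript, 50.8% also occur in *Gm20547*, an annotated transcript that joins *C2* and *Cfb* and has no value of its own here.

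**Figure D3:**
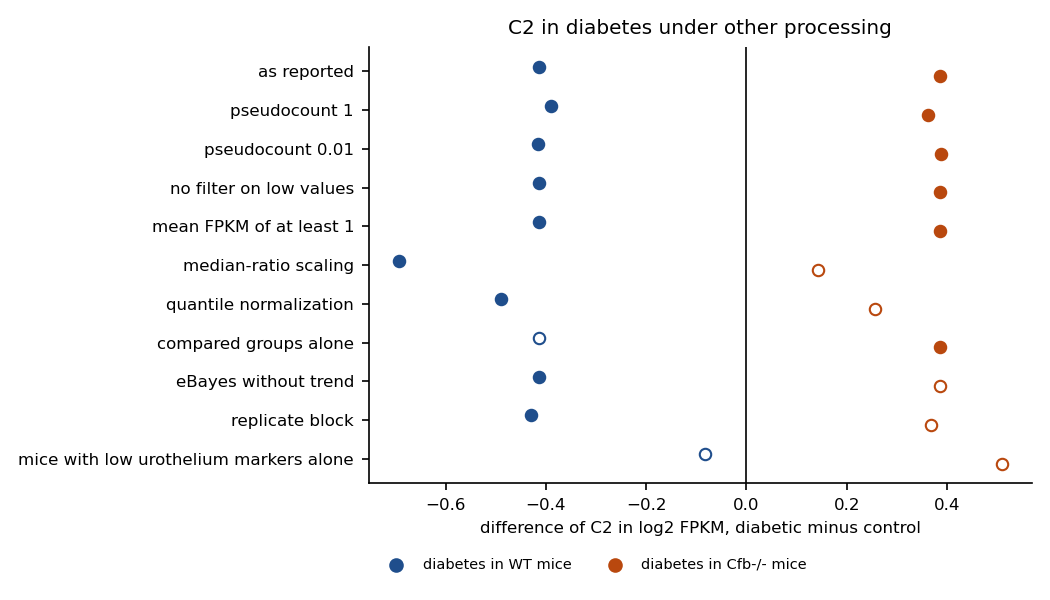
Log2 difference of C2 between diabetic and control mice in WT mice (blue) and Cfb-/- mice (orange), as reported and under 10 other ways of processing. Filled points passed an adjusted p under 0.05 and open points did not. All WT points lie below 0 and all Cfb-/- points above 0, with the WT value nearest to 0 (-0.08) when only mice with low urothelium markers were kept. That setting kept 1 WT diabetic mouse, the one with C2 within the WT control range.

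*Masp1*, at chr16:23451785-23521240 on the minus strand, encodes MASP-1 and, by other splicing, related products that the gene-level value cannot separate. It was at 0.184, 0.118, and 0.170 FPKM in WT control mice and reached 1.47, 1.30, 0.995, and 1.38 FPKM in WT diabetic mice. The *Cfb*-/- control mice had 0.0946, 0.113, and 0.184 FPKM and the *Cfb*-/- diabetic mice 1.59, 2.05, 1.61, and 1.09 FPKM. The diabetic and the control mice did not overlap in either genotype. The ratio of mean FPKM was 8.18 in WT mice and 12.1 in *Cfb*-/- mice. On the log2(FPKM + 0.1) scale, which understates changes of low genes, the difference was 2.43 (SE 0.22, limma adjusted p = 4.99e-06) and 2.86 (SE 0.22, limma adjusted p = 2.00e-06), respectively. It depended on the pseudocount and ran from 0.98 with a pseudocount of 1 to 2.96 with 0.01 in WT mice, so its place among the 9 genes depended on it too. With a pseudocount of 0.1 it was the largest of the 9 differences in both genotypes, and with 1 it was smaller than that of each C1q gene.

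*Masp2*, at chr4:148594622-148615499 on the plus strand, encodes MASP-2, the lectin pathway protease that cleaves C4 and C2. It was the only one of the 9 genes that did not pass the test in either genotype. It was at 0.485, 0.424, and 0.0895 FPKM in WT control mice and read 0.260, 0.0441, 0.235, and 0.193 FPKM in WT diabetic mice. Without factor B it was at 0.235, 0.492, and 0.403 FPKM without and at 0.235, 0.435, 0.275, and 0.220 FPKM with diabetes. The groups overlapped throughout. The log2 difference was -0.54 (95% interval -1.40 to 0.32) in WT mice and -0.28 (-1.14 to 0.58) in *Cfb*-/- mice, and both intervals spanned 0. In WT mice it passed after quantile normalization (-1.31, limma adjusted p = 0.0226) and without the third WT control mouse (-1.05, limma adjusted p = 0.0356). *Masp1* was thus below *Masp2* in all but 1 of the control mice, with a ratio of 0.229 to 1.90, and 4.24 to 29.6 times as high in diabetic mice.

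**Figure D4:**
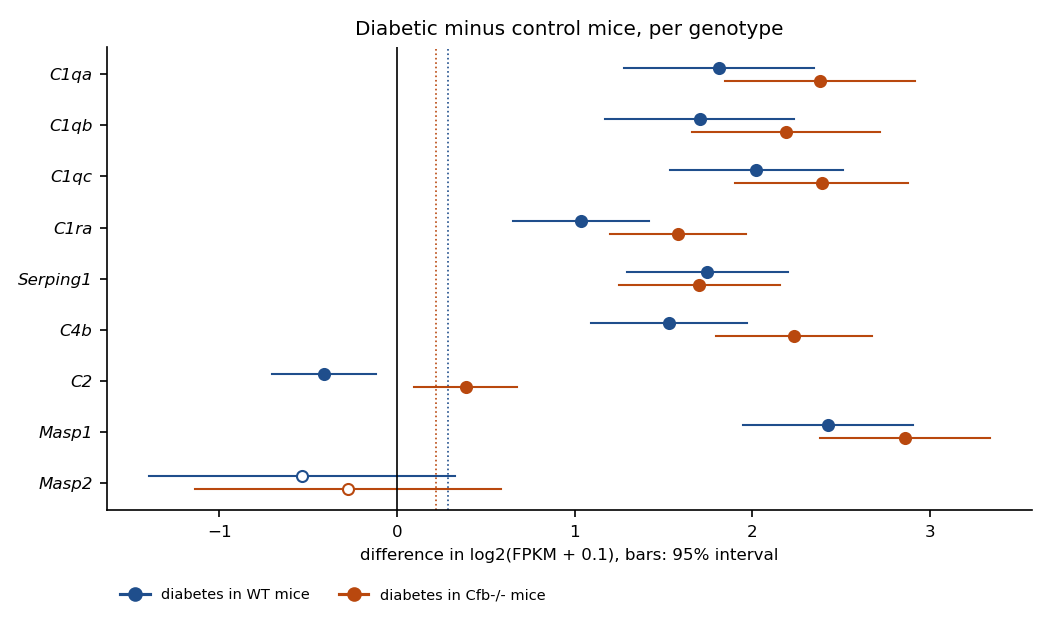
Difference in log2(FPKM + 0.1) between diabetic and control mice for the 9 genes, in WT mice (blue) and Cfb-/- mice (orange). Bars are 95% intervals, filled points passed an adjusted p under 0.05, and dotted lines mark the median of all tested genes (0.29 and 0.22). The 7 genes named as higher lie to the right of these lines in both genotypes, C2 lies on either side of 0, and Masp2 spans 0.

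The order of levels differed between control and diabetic mice. In WT control mice the highest means were those of *Serping1* (19.6 FPKM), *C2* (18.3 FPKM), *C1qb* (16.8 FPKM), and *C1qa* (16.4 FPKM), and neighbours in this order overlapped between mice. *C1qc* (9.08 FPKM), *C1ra* (4.08 FPKM), and *C4b* (2.39 FPKM) followed without overlap, and then *Masp2* (0.333 FPKM) and *Masp1* (0.158 FPKM), which overlapped. In WT diabetic mice *Serping1* (66.1 FPKM), *C1qa* (58.2 FPKM), *C1qb* (55.9 FPKM), and *C1qc* (37.9 FPKM) came first, each overlapping the next. *C2* (13.9 FPKM) lay below these, and *C1ra* (8.42 FPKM) overlapped *C4b* (7.32 FPKM). *Masp1* (1.29 FPKM) and *Masp2* (0.183 FPKM) came last and did not overlap. The order was the same in *Cfb*-/- diabetic mice, from 65.8 FPKM of *Serping1* to 0.291 FPKM of *Masp2*.

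The next question was whether deletion of *Cfb* changes the 9 genes. In control mice 0 of 9 passed the adjusted threshold from limma, where 0.00671% of all tested genes did, which is *Cfb* alone. At an unadjusted p under 0.05, 3 of 9 were lower in *Cfb*-/- control mice, *C2* (0.686-fold, 0.552 to 0.852, limma adjusted p = 0.236), *C4b* (0.680-fold, 0.491 to 0.943, limma adjusted p = 0.252), and *C1ra* (0.750-fold, 0.565 to 0.996, limma adjusted p = 0.283), beside 7.67% of all tested genes. All *Cfb*-/- control mice were below all WT control mice in *C2*, *C4b*, and *C1qb*, which is 3 of 9 genes against 7.12% of all tested genes. The count of 3 at an unadjusted p under 0.05 in limma fell to 1 with a pseudocount of 1. It was also 1 without the second *Cfb*-/- control mouse or without the third WT control mouse. With a replicate block, without a mean-variance trend, or without a filter on low values it was 2. After median-ratio scaling, or in a fit of the control mice alone, it was 4. Without the first WT control mouse, *C2* passed the adjusted threshold with a log2 difference of -0.60 (limma adjusted p = 0.0363), and the genes called over the whole table went from 1 to 1711 of 14912. The estimate was below 0 for 8 of the 9 genes, with a median of -0.41 beside 0.06 for all tested genes. The 9 genes come from the same mice and several vary together, so they are not separate observations. For *Serping1* the estimate was -0.01 (95% interval -0.49 to 0.48) and turned positive after quantile normalization (0.0123).

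Between diabetic mice 0 of 9 genes passed the adjusted threshold, where again 0.00671% of tested genes did, and 0 of 9 had an unadjusted p under 0.05, beside 3% of tested genes. By the exact two-sided permutation test, whose smallest p for 4 mice against 4 is 0.0286, 0 of 9 passed as well, and the lowest p was 0.171 for *C2* and for *Masp2*. The fold between *Cfb*-/- and WT diabetic mice was 1.03 for *C1qa* (0.728 to 1.44), 1.09 for *C1ra* (0.855 to 1.40), 1.11 for *C4b* (0.835 to 1.47), and 0.966 for *Serping1* (0.722 to 1.29). It was 1.19 for *C2* (0.989 to 1.44) and 1.20 for *Masp1* (0.881 to 1.63). All 9 intervals spanned 1, that of *Masp2* (0.826 to 2.49) was the widest, and differences within them remain possible. The differences of *C1qa*, *C1qb*, and *C1qc*, at 0.04, 0.02, and 0.05 on the log2 scale, turned negative after median-ratio scaling (-0.0172, -0.0325, and -0.00726).

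The effect of diabetes was then compared between the genotypes by the interaction term. Here 0 of 9 genes passed the adjusted threshold from limma, as did 0% of all tested genes. At an unadjusted p under 0.05 the effect of diabetes was more positive in *Cfb*-/- mice for 3 of 9 genes, *C2*, *C4b*, and *C1ra*, beside 2.86% of tested genes. The count fell to 1 with a pseudocount of 1 and without any 1 of 5 mice, namely the second *Cfb*-/- diabetic, the second or the fourth WT diabetic, the second *Cfb*-/- control, or the third WT control mouse. The difference was 0.80 on the log2 scale for *C2* (95% interval 0.38 to 1.21, limma adjusted p = 0.699), 0.70 for *C4b* (0.08 to 1.33, limma adjusted p = 0.779), and 0.54 for *C1ra* (0.0022 to 1.08, limma adjusted p = 0.779). These 3 genes are also those that were lower in *Cfb*-/- than in WT control mice, and both results use the same control mice. With only the 9 mice of low urothelium level the interaction was 0.59 for *C2*, 0.35 for *C4b*, and 0.51 for *C1ra*. These values rest on 1 WT diabetic and 1 *Cfb*-/- control mouse.

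**Figure D5:**
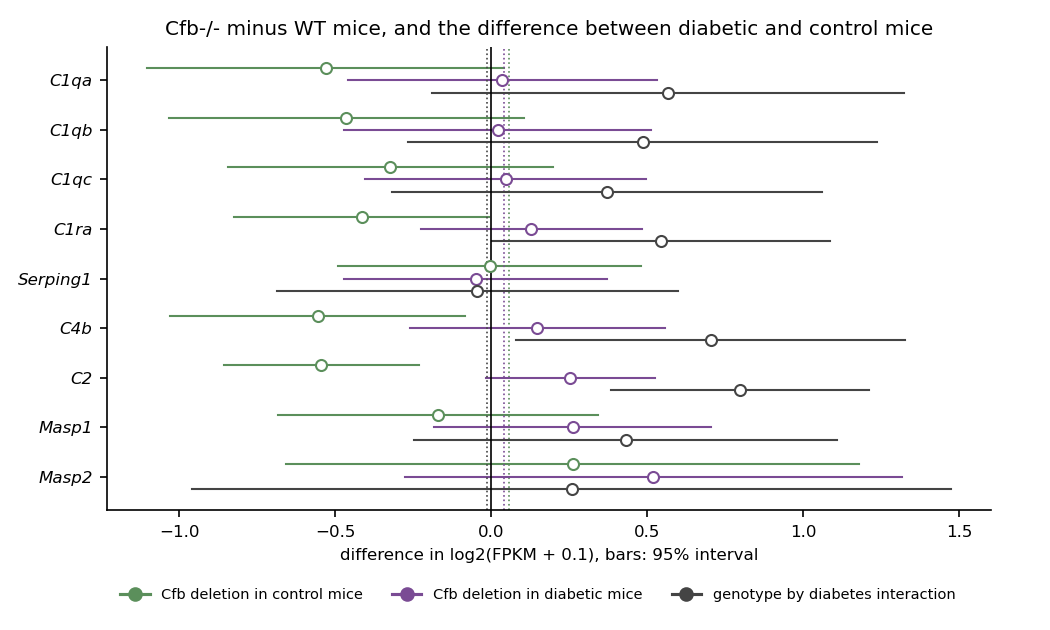
Difference in log2(FPKM + 0.1) between Cfb-/- and WT mice without diabetes (green), with diabetes (purple), and the difference between these differences (dark grey), with 95% intervals. All points are open because 0 of 9 genes passed an adjusted p under 0.05 in any of the comparisons, and dotted lines mark the median of all tested genes. For C2 the green bar lies below 0 and the dark grey bar above 0.

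Other genes of these pathways were taken from lists, described by counts. Over all tested genes, 36.2% were higher and 9.97% lower in diabetes in WT mice, and 27.4% and 6.4% in *Cfb*-/- mice. Of 16 other classical and lectin genes, 12 were tested. In WT mice 5 were higher in diabetes (*C1s1*, *C1s2*, *Fcna*, *Colec12*, and *Ptx3*) and 5 lower (*C1rl*, *C4a*, *Mbl2*, *Apcs*, and *C1qbp*), with a median log2 difference of 0.04. Of the 12, 4 were higher in *Cfb*-/- mice (*C1s1*, *Fcna*, *Colec11*, and *Colec12*) and 3 lower (*C1rl*, *C4a*, and *Apcs*), with a median of 0.41. *Colec12*, a scavenger receptor of the collectin family, rose from 2.65 to 3.83 FPKM to 7.76 to 9.83 FPKM in WT mice (log2 difference 1.44, SE 0.19, limma adjusted p = 6.89e-05). *C1rl*, a relative of C1r, fell from 6.92 to 7.90 FPKM to 3.98 to 5.15 FPKM in WT mice (-0.72, SE 0.18, limma adjusted p = 0.00627). The list as a whole thus split, whereas most of the 9 genes rose.

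Of 11 genes listed as regulators, most of which act on C4 and C3 fragments, 9 were tested. In each genotype 4 were higher and 0 lower, beside 36.2% of all tested genes higher in WT and 27.4% in *Cfb*-/- mice. These were *C4bp*, *Csmd1*, and *Clu* in both, with *Cd55* in WT mice and *Cfi* in *Cfb*-/- mice. *Clu*, which encodes clusterin, an inhibitor of the terminal pathway, rose from 91.3 to 124 FPKM to 235 to 390 FPKM in WT mice (log2 difference 1.47, SE 0.31, limma adjusted p = 0.00180). *Cfi*, the protease that inactivates C4 and C3 fragments, was at 0.982 to 1.84 FPKM in *Cfb*-/- control and 3.83 to 4.87 FPKM in *Cfb*-/- diabetic mice. Among C3 and the terminal components 6 of 8 were tested, and 3 were higher (*C3*, *C6*, and *C7*) and 2 lower in each genotype (*C8g* and *C9* in WT mice, *C8a* and *C8g* in *Cfb*-/- mice). *C3*, the protein on which all pathways converge, was at 1.64 to 2.19 FPKM in WT control and 33.7 to 44.8 FPKM in WT diabetic mice. It rose by 4.23 (SE 0.20, limma adjusted p = 1.37e-08) on the log2 scale in WT mice and by 3.75 (SE 0.20, limma adjusted p = 7.47e-08) in *Cfb*-/- mice. Across these 3 lists, 0 genes passed the adjusted threshold in either genotype comparison or in the interaction.

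Marker lists of other cell types were read in the same way, beside 36.2% of all tested genes higher and 9.97% lower in WT mice. In *Cfb*-/- mice these shares were 27.4% and 6.4%. Of 9 hepatocyte markers measured, 3 were higher and 1 lower in diabetes in WT mice, and 2 were higher and 1 lower in *Cfb*-/- mice. Of the most abundant of them, *Ttr* was higher and *Cyp2e1* was the one that was lower, in both genotypes, and *Alb* had a mean of 3.67 FPKM over all mice. Of 10 proximal tubule markers 7 were lower in WT and 8 in *Cfb*-/- mice, with *Kap* and *Miox* the most abundant. Endothelium markers were higher for 4 of 7 genes in each genotype (*Plvap* and *Emcn* the most abundant). Lymphocyte markers were higher for 5 of 8 in WT and 4 of 8 in *Cfb*-/- mice and stayed low, with a mean of 2.84 FPKM for *Nkg7* and 1.04 FPKM for *Cd79a*. Fibroblast markers (*Dcn* and *Col1a2* the most abundant) were higher for 9 of 10 and 8 of 10. Urothelium markers (*Upk1a* and *Upk3a*) were higher for 7 of 7 in WT and 0 of 7 in *Cfb*-/- mice. Of 7 adipocyte markers tested, 6 were higher in WT mice and 1 in *Cfb*-/- mice, and 1 was lower in each. Of the most abundant of these, *Fabp4* was higher and *Car3* lower in both genotypes.

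*C2* was compared with the other neighbours of *Cfb*, since a deletion can touch nearby genes. Of the 5 annotated genes on either side, 7 had values, namely *Dxo*, *Skiv2l*, *Nelfe*, *C2*, *Zbtb12*, *Ehmt2*, and *Slc44a4*. Between the genotypes 0 of these 7 passed the adjusted threshold from limma in control or in diabetic mice. Next to the log2 difference of -0.54 (SE 0.15) of *C2* in control mice, *Dxo* was at -0.35 (SE 0.18), *Nelfe*, on the far side of *Cfb*, at -0.25 (SE 0.13), and *Zbtb12* at 0.14 (SE 0.19). *Skiv2l*, *Ehmt2*, and *Slc44a4* lay between -0.13 and 0.00. Between diabetic mice *C2* was at 0.25 (SE 0.13), *Dxo* at 0.09 (SE 0.16), *Nelfe* at 0.05 (SE 0.11), and *Zbtb12* at -0.03 (SE 0.17). *Skiv2l*, *Ehmt2*, and *Slc44a4* were at 0.13, 0.02, and -0.02 there.

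Genes whose deviations from the group means were most like those of a member were sought among 11389 genes with a mean of at least 1 FPKM, over the 14 mice, as a description. For *C1qa* these were *Fcer1g* (Pearson's r 0.960), *Pcolce* (0.956), and *Praf2* (0.950). For *Serping1* they were *Tpst1* (0.912), *Cpxm1* (0.906), and *Myc* (0.905), and for *Masp1* the collagen genes *Col4a1* (0.904) and *Col4a2* (0.864) and *Pyhin1* (0.863). *C4b* was most like *Retnla* (0.875), *Ccdc191* (0.844), and *Nkrf* (0.825). The values of *C2* were lower, with *Fcgr2b* (0.782), *Pla2g6* (0.780), and *Pdlim2* (0.768). Among the members themselves, *C1ra* and *Serping1* (0.797) and *C2* and *C4b* (0.722) were the closest pairs outside the C1q chains. All these points share their libraries and their scaling.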

How the data were processed

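Total kidney RNA of 14 mice was made into stranded mRNA libraries with paired-end reads. The authors deposited FPKM per gene and mouse. Per the labels their processing used Trimmomatic, HISAT2, Cufflinks, HTSeq, and DESeq with GRCm38.p6, without versions. The count model of the study needs reads, so limma 3.58.1 in R 4.3.3 was used on log2(FPKM + 0.1), with no further scaling, a mean per group, a mean-variance trend, and Benjamini-Hochberg adjustment over the 14912 genes tested. Each named fold is from this scale unless given as a ratio of mean FPKM. The number of reads is unknown, so no counting interval is given. The labels do not say how mice were housed or born together, and p-values measure the spread between these mice.

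The members and lists were chosen with earlier results of these data known. Named genes are the 9 members, *Cfb* and its neighbours, listed genes called in a comparison, examples by size with a mean of at least 1 FPKM, the 2 most abundant genes of each marker list, and the 3 genes most like a member. The result of 1 marker list is not reported here. Promoters came from a RefSeq table (GRCm38.p6), which matched 4 of 9 members, and shared 125-base windows from GENCODE transcripts. Alternatives were other pseudocounts, filters, scalings, and spreads, a replicate block, and fits without single mice. The fit was tested on simulated data. Python 3.11.15, scipy 1.17.1, and matplotlib 3.10.9 were used.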

Additional observations from a re-analysis of the deposited data

Results flagged for a closer look

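The effect of diabetes differed between the genotypes, at an unadjusted p under 0.05 for the interaction of genotype with diabetes in limma, for 3 of the 9 genes, beside 2.86% of all tested genes in this direction. The log2 difference was 0.80 for *C2*, 0.70 for *C4b*, and 0.54 for *C1ra*, and none passed the adjustment over all tested genes. The count of 3 was 1 with a pseudocount of 1, with only the mice of low urothelium level, and without any 1 of 5 mice, and 2 with a replicate block. Over all alternatives the limma adjusted p ran from 0.111 to 1 for *C2*, from 0.284 to 1 for *C4b*, and from 0.358 to 1 for *C1ra*. In *C2* all *Cfb*-/- diabetic mice were above all *Cfb*-/- control mice, while 3 of 4 WT diabetic mice were below all WT control mice. Among 18 sets of 4 diabetic mice for 1 gene, 0 had a mouse farther from the rest than Dixon's limit for 4 values.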

How the results depend on the processing

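Of 45 results on single genes, 30 kept their direction and their side of the threshold under every alternative. The number of genes called in diabetes was 7 to 9 in WT mice and 7 or 8 in *Cfb*-/- mice under all of them, and 7 in each with only the mice of low urothelium level, where the genes called over the whole table fell from 6879 to 1832 and from 5038 to 2394. In *Cfb*-/- control against WT control mice it became 1 without the first WT control mouse and was 0 to 1 when each mouse was left out. Over the whole table this comparison called 1 gene, or 1 to 4 under the alternatives that kept each group whole, and 1711 without the first WT control mouse. Between diabetic mice 1 gene was called, or 1 to 6, and in the interaction 0, or 0 to 4. The number of reversals was 36, all in differences that were not called. Those outside the removal of single mice were 0.0123 for *Serping1* between control mice (quantile normalization), and between diabetic mice -0.0172, -0.0325, and -0.00726 for *C1qa*, *C1qb*, and *C1qc* (median-ratio scaling). Keeping only the mice of low urothelium level, added after the data were seen, left 1 WT diabetic and 1 *Cfb*-/- control mouse. The WT diabetic mouse kept had the highest *C1ra*, *C2*, and *C4b* of its group. The reversals between diabetic mice were then -0.23, -0.21, -0.14, -0.0746, -0.0767, and -0.42 for *C1qa*, *C1qb*, *C1qc*, *C1ra*, *C2*, and *C4b*. Those of the interaction were -0.52 for *Masp2* and 0.0414 for *Serping1*. The cause was not tested. When each mouse was left out, the log2 differences ran from -0.25 to 0.56 (*Masp2*) and -0.25 to 0.14 (*Serping1*) between control mice. Between diabetic mice they ran from -0.11 to 0.19 (*C1qa*), -0.13 to 0.20 (*C1qb*), -0.0909 to 0.18 (*C1qc*), -0.0131 to 0.22 (*C1ra*), and -0.21 to 0.14 (*Serping1*). Those of the interaction ran from -0.0390 to 0.77 (*Masp2*) and -0.20 to 0.20 (*Serping1*).

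Replicate numbers are shared by the groups, but same-numbered mice did not deviate together (correlations -0.39 to 0.24), so the numbers do not pair the mice. With a replicate block, 7 genes were called in *Cfb*-/- mice and 8 in WT mice, and the rise of *C2* in *Cfb*-/- mice was 0.37 (limma adjusted p = 0.0919). Leaving a mouse out of the exact test of 4 against 4 was not run, since 3 against 4 cannot pass when the smaller tail is doubled. With a filter at a mean of 1 FPKM *Masp1* and *Masp2* dropped out, so 7 genes were tested. Genes near 0.1 FPKM, such as *Masp2*, are limited by depth.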

Other observations

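Among the other pathway genes whose control mice did not overlap between the genotypes, 3 were singled out after their values were seen. *Colec11*, a collectin that binds MASP proteases, was at 0.763 to 1.28 FPKM in WT control and 0.184 to 0.318 FPKM in *Cfb*-/- control mice, and at 0.822 to 0.965 FPKM and 0.591 to 1.49 FPKM in the diabetic mice of these genotypes. *Mbl2*, a mannose-binding lectin, was at 0.324 to 0.465 FPKM in WT control and 0 to 0.128 FPKM in *Cfb*-/- control mice. *Cfi*, the protease that inactivates C4 and C3 fragments, was at 2.44 to 2.998 FPKM in WT control and 0.982 to 1.84 FPKM in *Cfb*-/- control mice. *C9* (0.310 to 0.377 FPKM in WT control, 0.143 to 0.175 FPKM in *Cfb*-/- control mice) was also lower without overlap. So was *C1qbp*, at 85.3 to 118 FPKM and 72.5 to 82.9 FPKM. *Cd55* went the other way without overlap, at 0.961 to 1.20 FPKM and 1.51 to 1.74 FPKM. Of all tested genes 7.12% were lower in *Cfb*-/- control mice without overlap. None of the genes named here passed the adjusted threshold from limma. The log2 difference between the control mice was -0.04 for *Mbl1*, -0.01 for *Colec12*, and 0.37 for *Ptx3*, and *Fcna* was listed at 0 in both groups.

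*Apcs*, which encodes the pentraxin serum amyloid P, a C1q ligand, was at 1.70 to 3.46 FPKM in WT control and 0.125 to 0.759 FPKM in WT diabetic mice. *Fcna*, a ficolin, was listed at 0 in all 6 control mice and at 0.0300 to 0.320 FPKM in the 8 diabetic mice.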
